A study of Mus musculus with 25 samples.

Results

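The activin, follistatin and activin receptor genes of the developing mouse palate were followed across its compartments. The group was chosen by name and holds 8 genes of the 37406 in the table, each with 1 row: the activin subunits Inhba and Inhbb, the antagonist follistatin (Fst) and the follistatin-like genes Fstl1 and Fstl3, and the receptors Acvr1b, Acvr2a and Acvr2b. Expression was measured by RNA-seq of laser capture microdissected palates from wild type CD1 mouse embryos at E14.5. The 25 libraries fall into 8 compartments: anterior and posterior palate were each divided into medial, lateral, oral and nasal tissue. Each compartment has 3 replicates, apart from anterior nasal, which has 4. The labels give the same strain, genotype and stage for all libraries, so that the groups differ by label only in where tissue was captured. Medial with lateral, and oral with nasal, are alternative divisions of the same shelves, and their libraries overlap in the tissue they cover.

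Activins are secreted dimers of beta subunits, Inhba encoding beta A and Inhbb beta B. They bind the type II receptors ACVR2A and ACVR2B, which recruit the type I receptor ACVR1B (ALK4) and lead to phosphorylation of SMAD2 and SMAD3. Follistatin and FSTL3 bind activins and block access to their receptors. FSTL1 shares the follistatin domain but is not known mainly as an activin trap. Mice without activin beta A or follistatin are known to have defects of craniofacial development that include the palate.

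In the table, on mouse build mm9, Inhba (gene ID 16323) spans chr13:16106284-16119044 and Inhbb (16324) chr1:121312042-121318825. Fst (14313) spans chr13:115242470-115248938, Fstl1 (14314) chr16:37777141-37836602 and Fstl3 (83554) chr10:79240019-79245375. The receptor genes are Acvr1b (11479) at chr15:101004556-101043032, Acvr2a (11480) at chr2:48669629-48758784 and Acvr2b (11481) at chr9:119311619-119342624. Inhba and Fst thus lie on the same chromosome, far apart.

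The upstream sequences of both ligand genes are shown. Both genes had higher values anteriorly, though Inhbb was near the limit of detection and its difference did not pass with run as a covariate. These sequences are also unlike each other. They are the 250 bases before the RefSeq start of each gene (build GRCm38.p6), written 5′ to 3′ on the gene's strand, and hold no annotated exon of the gene. Inhba lies on the plus strand with this window at chr13:16011601-16011850, and Inhbb on the minus strand with the window at chr1:119422249-119422498. Capitals mark matches on either strand to TATAAA, the TATA box, and TAATTG, a core bound by many homeodomain proteins.
Inhba: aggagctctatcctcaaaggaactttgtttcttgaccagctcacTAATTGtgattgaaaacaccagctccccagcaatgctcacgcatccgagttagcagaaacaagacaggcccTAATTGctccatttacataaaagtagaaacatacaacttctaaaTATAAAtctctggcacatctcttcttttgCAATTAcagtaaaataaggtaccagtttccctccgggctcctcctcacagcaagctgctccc
Inhbb: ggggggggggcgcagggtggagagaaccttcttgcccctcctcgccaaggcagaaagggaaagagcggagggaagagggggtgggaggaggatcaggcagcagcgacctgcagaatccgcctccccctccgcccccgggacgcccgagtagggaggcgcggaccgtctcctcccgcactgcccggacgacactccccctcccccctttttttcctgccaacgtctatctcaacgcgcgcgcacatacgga
The Inhba window held 3 matches to TAATTG, which began 206, 135 and 62 bases before the start, and 1 match to TATAAA 91 bases before it. Among 27025 mouse windows of this length, 7.34% held TAATTG and 12.97% held TATAAA. The Inhbb window held neither. Of the 7 members with an entry, Inhba was the only one with TAATTG, and Fstl3 was the only other one with TATAAA. The GC content of the Inhba window was 43.2% with 3 CpG, against 68.0% to 82.0% and 16 to 49 CpG for the other 6 members, where the median over all windows was 52.0% and 6 CpG. Neither the Smad palindrome GTCTAGAC nor the cAMP response element TGACGTCA was found in any member, and 0.174% and 1.62% of all windows held them. These letters were picked after the sequences were seen, and a match is a description of the window only.

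Levels are given in RPKM, read counts scaled to transcript length and to library size, so that genes can be compared with each other. Fstl1 was by far the most abundant member, with a median of 196 RPKM over the 25 libraries, and 99.5% of genes listed above 0 in any library had a lower mean. Inhba followed with a median of 29.9 RPKM, then the type II receptor Acvr2a with 14.3 and Fst with 8.92. The type I receptor Acvr1b had a median of 5.18 RPKM, Acvr2b 2.40 and Fstl3 2.23. Inhbb was close to the limit of detection at 0.305 RPKM. Of the 2 activin subunits, beta A thus had by far the higher level per length, and of the 2 type II receptors, Acvr2a had.

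The implied number of counted reads, worked out from the spacing of low values, was 1.64 to 6.56 M per library. In a library of median depth 1 read on an Inhbb transcript of 4255 bases equals 0.0719 RPKM, so the Inhbb values rest on about 0 to 38 reads and those of Fstl3 on about 1 to 80. The Inhba values rest on about 115 to 3651 reads. Replicates of a compartment correlated at r = 0.612 to 0.932 on the log2 scale, across genes. Posterior medial replicate 2 stood apart, and Inhbb, Acvr1b and Acvr2b were all listed at 0 in it. All 6 palate mesenchyme markers, Prrx1, Prrx2, Twist1, Osr2, Pax9 and Lhx8, were present in every library. So were all 7 epithelial markers, at summed levels of 17.5 to 207 RPKM, and each compartment therefore held several cell types. In such samples fewer cells of a type and less RNA per cell cannot be told apart. The libraries came from 8 sequencing runs, named A to H here, that were not spread evenly over the compartments.

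**Figure D1:**
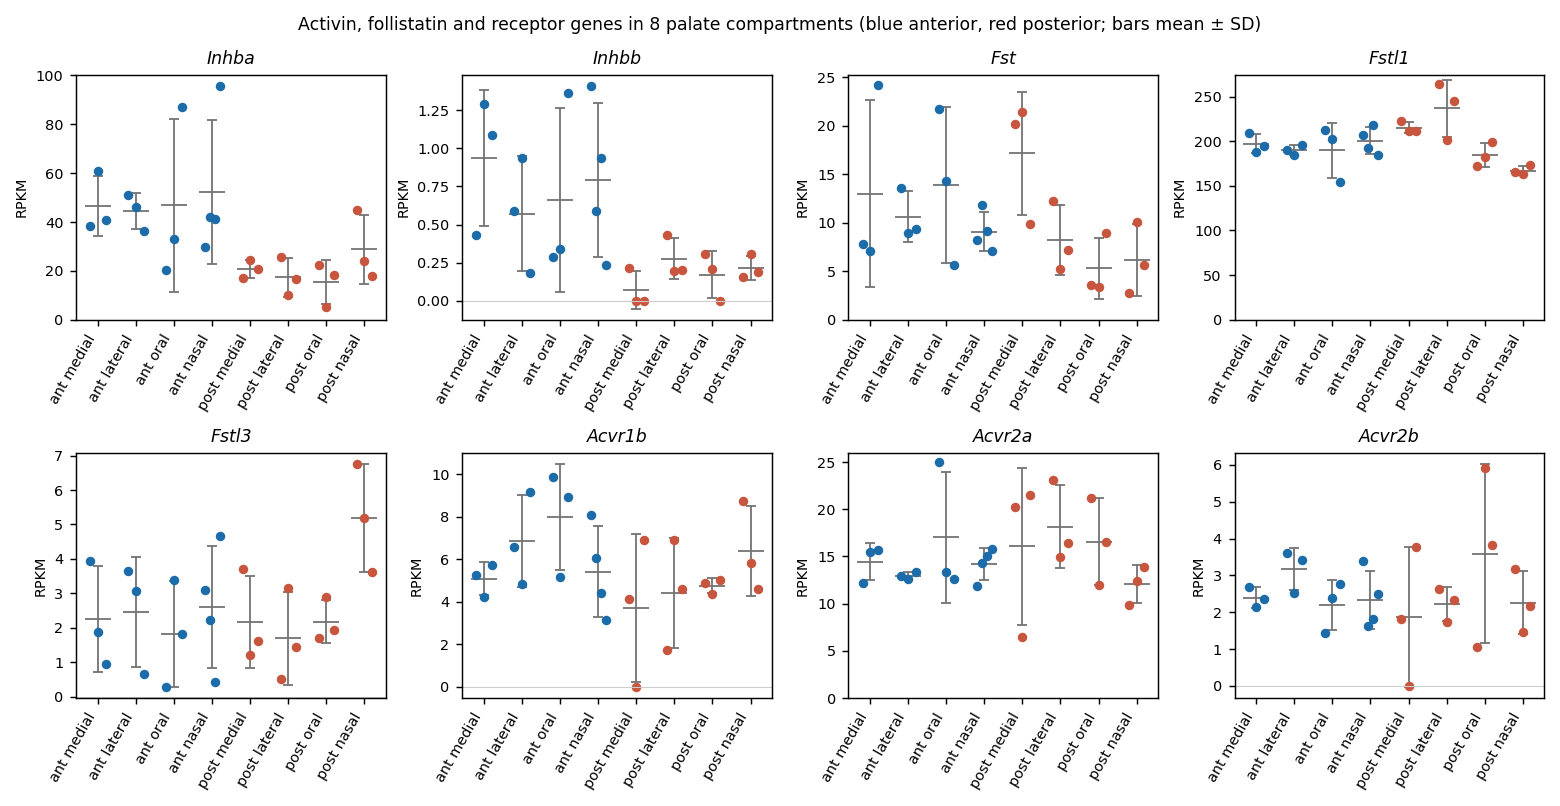
RPKM of each of the 8 members in every library, by compartment (blue anterior, red posterior; the grey bars are the mean ± SD of 3 replicates, 4 for anterior nasal). The 4 anterior Inhba means, 44.6 to 52.3 RPKM, sit above the 4 posterior means, 15.4 to 28.9 RPKM, while Fstl1 stays between 154 and 264 RPKM throughout.

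Inhba was higher in the anterior palate. In the anterior libraries it ranged from 20.5 RPKM through a median of 41.2 to 95.8 (n = 13), and in the posterior ones from 5.25 through 19.5 to 44.9 (n = 12). The groups overlapped, but 6 of the 12 posterior libraries lay below every anterior one and only 1 lay above the anterior median. The fitted posterior minus anterior difference was -1.25 on the log2(RPKM + 0.1) scale (SE 0.26, 95% interval -1.79 to -0.72), which is 2.38-fold lower posteriorly (limma adjusted p = 0.00407). Inhba was 1 of 4 members that met the minimum of 10 RPKM in 6 libraries for this comparison, and the only one of them that passed the test. Over all 8608 genes tested 3.32% passed, 1.66% in each direction. When each library was centred on its median the split of passing genes moved from 143 higher and 143 lower posteriorly to 114 and 179, and Inhba stayed lower.

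The order of the compartments showed the same division. Anterior nasal had the highest Inhba mean, 52.3 RPKM ± 29.6 (SD, n = 4), followed by anterior oral with 47.0 ± 35.4 (SD, n = 3), anterior medial with 46.6 ± 12.3 (SD, n = 3) and anterior lateral with 44.6 ± 7.51 (SD, n = 3). The posterior compartments followed, with nasal at 28.9 ± 14.1, medial at 20.8 ± 3.80, lateral at 17.5 ± 7.98 and oral at 15.4 ± 9.03 (SD, n = 3 each). Every neighbouring pair in this order overlapped.

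The medial and the lateral compartments separated the axis most cleanly. The anterior medial libraries had 38.2, 60.7 and 40.9 RPKM of Inhba and the posterior medial ones 17.0, 24.6 and 20.8. The anterior lateral libraries had 51.3, 46.0 and 36.4 RPKM and the posterior lateral ones 25.9, 9.98 and 16.6. In both pairs every posterior library was below every anterior one, which held in that direction for 6.94% of genes in medial and 10.8% in lateral. The oral and nasal pairs were more spread. Anterior oral libraries had 20.5, 33.2 and 87.2 RPKM against 22.6, 5.25 and 18.2 in posterior oral, where 1 posterior library lay above the lowest anterior one. Anterior nasal libraries had 29.9, 42.1, 41.2 and 95.8 RPKM against 44.9, 23.9 and 17.96 in posterior nasal, again with 1 posterior library inside the anterior range. In the test of variation over all 8 compartments Inhba did not pass (limma adjusted p = 0.160, unadjusted p = 0.0116), and none of the 5 members tested passed it, against 4.42% of 11913 genes.

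**Figure D2:**
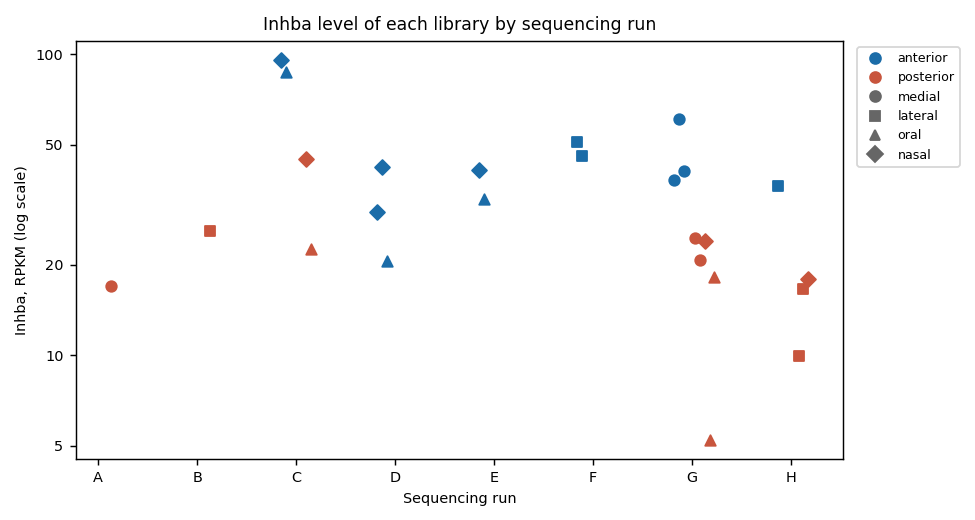
Inhba RPKM of each library on a log scale, by sequencing run (blue anterior, red posterior; circles medial, squares lateral, triangles oral, diamonds nasal). In the 3 runs that hold both axes, C, G and H, every posterior library lies below every anterior one of that run.

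Sequencing run moved with the Inhba level. Run C supplied 1 library to each of 4 compartments, and in all 4 that library had the highest Inhba value. It was 3.25 times the mean of the other libraries in anterior oral, 2.54 times in anterior nasal, 2.15 times in posterior nasal and 1.92 times in posterior oral. A pattern of this kind was found for 6.72% of 11913 genes. The names of the alignments of run C carry the tag Tgfbr2_WT, which no other run has, and those of runs A and B, 1 posterior library each, carry ERK2_WT. The labels give CD1 wild type for these libraries too, and whether their embryos came from other crosses was not tested, so that run and a possible cross cannot be told apart. The highest values of the anterior nasal and anterior oral compartments therefore come from 1 run, and its part in them was not tested further.

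The anterior to posterior difference was also present inside runs. Within run C the anterior libraries had 87.2 and 95.8 RPKM of Inhba and the posterior ones 22.6 and 44.9. Within run G the 3 anterior libraries, all medial, ranged from 38.2 to 60.7 RPKM. The 5 posterior ones, medial, oral and nasal, ranged from 5.25 to 24.6, with 24.6 and 20.8 in medial. Within run H the single anterior library, lateral, had 36.4 RPKM. The 3 posterior ones, lateral and nasal, had 9.98 to 17.96, with 9.98 and 16.6 in lateral. Compartments were thus not matched between the axes within runs G and H. The groups did not overlap in any of these 3 runs, a pattern that 1.2% of 11913 genes had in this direction. Without run C the log2 difference was -1.22 (adjusted p = 0.00399). In a fit with run as a covariate and a mean for each compartment it was -1.39 (adjusted p = 0.0287).

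Inhba was lower in oral than in nasal libraries of the same run and axis in each of the 5 comparisons the runs allow, as were 2.37% of 11913 genes, although the pooled tests did not pass. In the anterior palate the oral library had 20.5 RPKM against 29.9 and 42.1 in the nasal ones of run D, 33.2 against 41.2 in run E, and 87.2 against 95.8 in run C. In the posterior palate the oral library had 22.6 RPKM against 44.9 in run C, and the oral libraries of run G had 5.25 and 18.2 against 23.9. Pooled over runs, the oral minus nasal log2 difference was -0.27 anteriorly (95% interval -1.55 to 1.00, limma adjusted p = 1.00) and -1.04 posteriorly (-2.32 to 0.24, adjusted p = 0.848). In these comparisons 0 of 5 tested members passed, against 0% of 10684 genes anteriorly and 1.25% of 10586 posteriorly. With the replicate number as a block the anterior difference was 0.065 (adjusted p = 1.00). That block leaves nasal replicate 4 of run C without an oral partner, and the anterior difference without this library was also 0.065. The block also puts oral replicates 2 and 3, of runs E and C, with nasal ones of runs D and E. Pooled over runs, the posterior difference minus the anterior one was -0.77 (-2.71 to 1.17), and this interaction called 0.035% of 11442 genes.

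Inhba did not pass a test between lateral and medial compartments. The lateral minus medial log2 difference was -0.05 anteriorly (95% interval -0.54 to 0.45, limma adjusted p = 0.952) and -0.34 posteriorly (-1.33 to 0.66, adjusted p = 0.957). With run left out of the fit, these intervals leave room for a change of more than 2-fold posteriorly but not anteriorly. In neither pair did lateral and medial libraries share a run, so run and compartment cannot be told apart within them. With run as a covariate over all 25 libraries the anterior difference was 0.0029 with an SE of 0.82. The SE was 0.21 in the fit of the 2 compartments without run. The anterior bound therefore does not hold in the fit with run, which differs from the other one in its libraries too. No member passed in either comparison, 0 of 5 tested anteriorly, where 2.51% of 10427 genes passed, and 0 of 4 posteriorly, where 0% of 10324 passed. The interaction of these comparisons called 0.00902% of 11089 genes and no member.

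Markers of blood tended to be higher in libraries where Inhba was lower. The 4 red cell markers Hbb-bh1, Hbb-b1, Hba-a1 and Alas2, genes of hemoglobin and heme synthesis, summed to 124 to 421 RPKM in the anterior libraries (median 244) and to 153 to 655 in the posterior ones (median 366). All 4 were detected in both groups, and Hbb-bh1 was at 0 in 2 libraries. Their summed level and Inhba had a Pearson r of -0.67 over the 25 libraries on the log2 scale, -0.78 within the anterior and -0.52 within the posterior libraries, a description over libraries that share runs and differ in depth. Epithelial markers summed to 21.0 to 140 RPKM anteriorly (median 58.6) and 17.5 to 207 posteriorly (median 30.1), and their r with Inhba was 0.41 over all libraries, 0.11 within the anterior and 0.36 within the posterior libraries, and 0.51 without posterior medial replicate 2. The lists for palate mesenchyme, endothelium, macrophages, skeletal muscle, osteoblasts, cartilage and nerve had r values with Inhba from -0.17 (cartilage) to -0.02 (endothelium). The part of blood or epithelium in the Inhba difference was not tested.

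**Figure D3:**
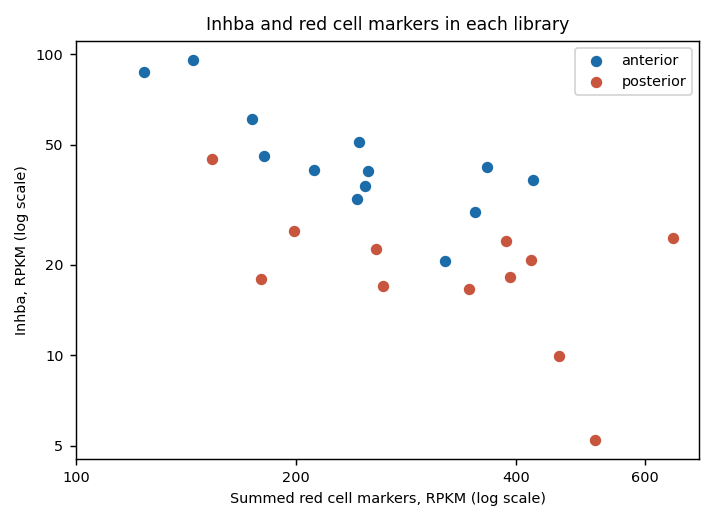
Inhba RPKM of each library against the summed RPKM of 4 red cell markers, both on log scales (blue anterior, red posterior). Inhba is lower where the markers are higher in both groups (r = -0.78 anterior, -0.52 posterior).

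Inhbb, the beta B subunit, was very low, and its values also lay higher anteriorly. Anterior libraries ranged from 0.182 RPKM through a median of 0.590 to 1.41 (n = 13) and posterior ones from 0 through 0.200 to 0.430 (n = 12). The 3 libraries at 0 were all posterior, 2 medial and 1 oral, and 3 reads there would equal 0.183 to 0.300 RPKM. None of the 12 posterior libraries lay above the anterior median. Inhbb did not meet the expression minimum and so had no test there. In the fit of all 22399 genes with no minimum, its posterior minus anterior log2 difference was -1.55 (SE 0.33, limma adjusted p = 0.00811). The size depended on the pseudocount, with -0.52 at a pseudocount of 1 and -2.49 at 0.01, both past the threshold. With run as a covariate the difference was -1.35 and did not pass (adjusted p = 0.497). That fit also has a mean for each compartment, so run is not its only change.

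The Inhbb values by compartment again put the 4 anterior means first. Anterior medial had 0.431, 1.29 and 1.09 RPKM against 0.217, 0 and 0 in posterior medial, the only pair without overlap, which 6.94% of the genes at the minimum had in this direction. Anterior oral had 0.287, 0.337 and 1.36 against 0.307, 0.205 and 0 in posterior oral. Within run G the 3 anterior libraries, all medial, had 0.431 to 1.29 RPKM and the 5 posterior ones 0 to 0.305. Within run H the single anterior library had 0.182 RPKM, below the 3 posterior ones at 0.187 to 0.202, so this run did not show the difference. At these levels 1 or 2 reads move a value, and single libraries carry little information. Over all libraries Inhba and Inhbb had an r of 0.50, but 0.20 within the anterior and -0.08 within the posterior libraries.

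Fst, the secreted antagonist, did not pass the test along the axis. Anterior libraries ranged from 5.69 RPKM through a median of 9.15 to 24.2 (n = 13) and posterior ones from 2.72 through 8.07 to 21.4 (n = 12), with wide overlap. The posterior minus anterior log2 difference was -0.46 (SE 0.30, 95% interval -1.08 to 0.17, limma adjusted p = 0.518). The highest and the lowest compartment means of Fst were both posterior. Posterior medial had 20.2, 21.4 and 9.85 RPKM and posterior oral 3.599, 3.39 and 8.92, all below it, as was so for 2.53% of genes. The difference between the 2 was not tested, since they belong to different divisions of the shelves.

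Posterior lateral libraries had 12.2, 5.27 and 7.21 RPKM of Fst, of which 2 lay below every posterior medial library. The lateral minus medial log2 difference was -1.06 posteriorly (95% interval -2.17 to 0.06, unadjusted p = 0.0601, limma adjusted p = 0.957) and -0.08 anteriorly (-1.13 to 0.97, adjusted p = 0.967). Anterior medial libraries had 7.81, 7.05 and 24.2 RPKM, so that 1 library set that mean. The anterior interval was therefore wide. Posterior medial replicate 2, which stands apart, had the highest Fst value of its compartment. Epithelial markers moved with Fst (r = 0.48 over 25 libraries). They summed to 48.7, 207 and 78.3 RPKM in posterior medial, 24.98 to 34.7 in posterior oral and 17.5 to 25.1 in posterior lateral, and were highest among anterior libraries, at 140 RPKM, in anterior medial replicate 3, which also had the highest Fst. Osteoblast markers had an r of -0.55 with Fst. The part of these cells in the Fst values was not tested.

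The ratio of ligand to antagonist transcript, for Inhba and Fst only, varied widely between libraries, and protein was not measured. The ratio of Inhba to Fst in RPKM ranged from 0.946 through a median of 3.90 to 15.3 in anterior libraries and from 0.840 through 2.11 to 16.5 in posterior ones. It fell below 1 in 2 of 25 libraries, anterior oral replicate 1 and posterior medial replicate 1. The lowest median, 1.15, was that of posterior medial, where Fst was highest, and the 3 values there were 0.840, 1.15 and 2.11. The highest value of anterior oral, anterior nasal, posterior oral and posterior nasal was in each case the library of run C. In run C Fst was the lowest of its compartment in 3 of 4 compartments while Inhba was the highest in all 4. Inhba and Fst had an r of 0.12 over the 25 libraries.

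Fstl1, the abundant follistatin-domain protein of mesenchyme, was nearly even. It ranged from 154 RPKM through a median of 194 to 219 in anterior libraries and from 163 through 200.02 to 264 in posterior ones. The posterior minus anterior log2 difference was 0.03 (SE 0.08, 95% interval -0.14 to 0.21, limma adjusted p = 0.906), and both groups lay within a narrow range.
In single pairs of compartments the Fstl1 values separated in opposite directions, but so did those of many other genes in each pair. Posterior lateral libraries had 264, 201 and 245 RPKM, all above the 190, 184 and 196 of anterior lateral, and posterior medial ones had 222, 211 and 211, all above the 209, 188 and 194 of anterior medial. Posterior nasal libraries had 165, 163 and 173 RPKM, all below the 207, 192, 219 and 184 of anterior nasal. Such separation was found in the same direction for 8.13% of genes in lateral, 4.96% in medial and 5.91% in nasal. The ratios of means were 1.25, 1.09 and 0.833. These differences between compartments had no test of their own. The variation of Fstl1 over the 8 compartments did not pass (adjusted p = 0.687).

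Fstl3, a follistatin-like activin antagonist, was low, at 0.291 to 6.75 RPKM. Its highest compartment was posterior nasal, with 6.75, 5.20 and 3.61 RPKM against 1.70, 2.89 and 1.94 in posterior oral, and these groups did not overlap, as was so in that direction for 5.64% of genes. In the fit with no expression minimum the oral minus nasal log2 difference was -1.21 (SE 0.34, unadjusted p = 0.0112) and did not pass after adjustment over 20679 genes (limma adjusted p = 0.36). The 4 osteoblast markers Sp7, Ibsp, Runx2 and Alpl moved with Fstl3 (r = 0.50 over 25 libraries) and summed to 376 to 545 RPKM in posterior nasal against 82.5 to 105 in posterior oral, and their part in the difference was not tested. Anterior nasal libraries had 3.09, 2.23, 0.422 and 4.65 RPKM, and anterior oral ones 0.291, 3.38 and 1.81. Posterior and anterior libraries had medians of 2.41 and 2.23 RPKM (log2 difference 0.36, adjusted p = 0.74 in the fit with no minimum).

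**Figure D4:**
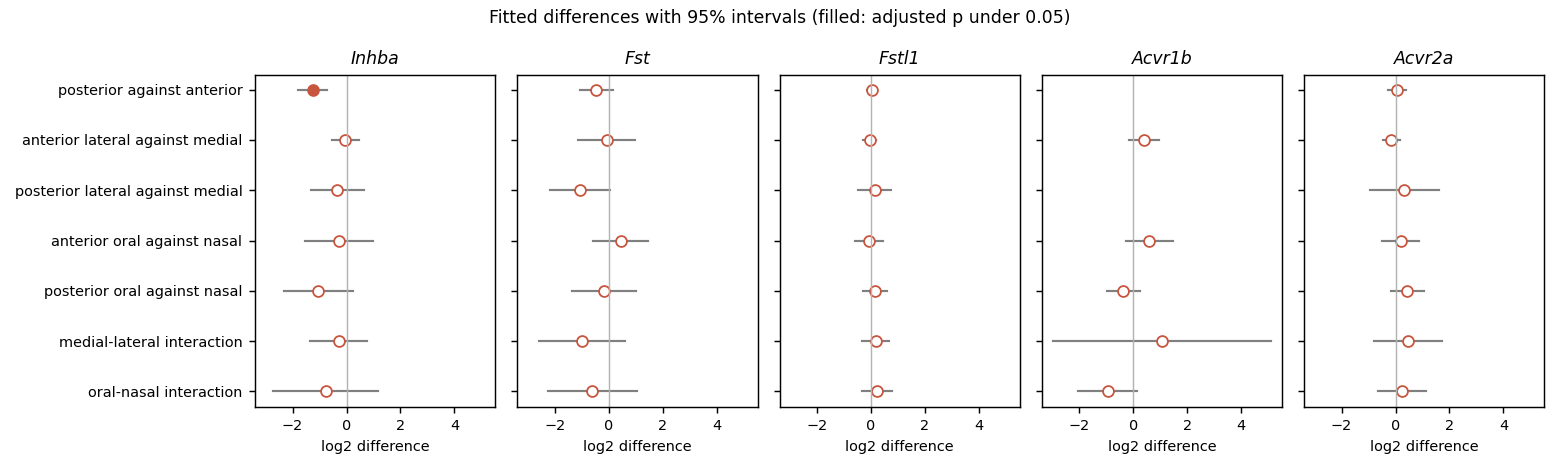
Fitted log2(RPKM + 0.1) differences (circles) and 95% intervals (lines) of the 5 members that met the expression minimum, in 7 comparisons named on the vertical axis; each is the first group minus the second, and an interaction is the posterior difference minus the anterior one. Only the posterior against anterior difference of Inhba, -1.25, is filled (adjusted p = 0.00407); Acvr1b lacks 2 comparisons in which it was under the minimum.

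No receptor passed a test along the axis, and only Acvr2a met the expression minimum there. Acvr2a, the main type II receptor transcript, ranged from 11.9 RPKM through a median of 13.4 to 25.1 in anterior libraries and from 6.52 through 15.7 to 23.1 in posterior ones. The posterior minus anterior log2 difference was 0.05 (SE 0.16, 95% interval -0.29 to 0.39, limma adjusted p = 0.927). The lowest value was in posterior medial replicate 2, the library that stands apart, and the highest in anterior oral replicate 1, the shallowest library at 1.64 M reads. Posterior lateral libraries had 23.1, 15.0 and 16.4 RPKM, all above the 12.9, 12.59 and 13.3 of anterior lateral, which was so for 8.13% of genes.

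Acvr1b, the type I receptor, and Acvr2b, the second type II receptor, were lower. Acvr1b ranged from 3.14 through 5.75 to 9.87 RPKM in anterior libraries and from 0 through 4.75 to 8.73 in posterior ones. Anterior oral libraries had 9.87, 5.18 and 8.95 RPKM, all above the 4.90, 4.39 and 5.01 of posterior oral, a separation that 2.87% of genes had in that direction. The oral minus nasal log2 difference of Acvr1b was 0.59 anteriorly (95% interval -0.29 to 1.46) and -0.37 posteriorly (-0.97 to 0.24), and the interaction of -0.95 did not pass (limma adjusted p = 1.00, unadjusted p = 0.0786). Acvr2b ranged from 1.43 through 2.49 to 3.598 RPKM anteriorly and from 0 through 2.24 to 5.91 posteriorly. In the fit with no minimum neither gene passed for posterior against anterior (Acvr1b -0.74, adjusted p = 0.569; Acvr2b -0.38, adjusted p = 0.721). Over 25 libraries the 2 genes had an r of 0.81, but 0.05 without posterior medial replicate 2, in which both were at 0.

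The other genes of the pathway, a list of 35 that were all in the table, mostly did not pass. In posterior against anterior 0 of 14 tested passed, and the median log2 difference of these 14 was 0.05 against 0.03 over all genes. Among the ligands only 1 of 8 was tested there, Inha, the inhibin alpha subunit, at 13.2 RPKM ± 3.35 anteriorly and 15.2 ± 8.83 posteriorly (SD, n = 13 and 12; limma adjusted p = 0.882). Nodal did not exceed 1.10 RPKM and Mstn, myostatin, 1.21 RPKM in any library. The receptor list included Tgfbr3, betaglycan, which binds inhibin as a co-receptor. Its level was 24.0 RPKM ± 8.04 anteriorly and 14.2 ± 6.197 posteriorly (SD, n = 13 and 12), a log2 difference of -0.89 that did not pass (adjusted p = 0.102).

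In anterior lateral against medial 2 of 17 listed genes passed, where 1.43% of all genes passed as higher laterally and 1.08% as lower. Tgfbr3 was higher laterally (log2 difference 0.94, SE 0.13, limma adjusted p = 0.0143), with 31.9 to 35.6 RPKM in lateral and 15.1 to 19.3 in medial libraries. Pmepa1, a TGF-beta response gene that limits SMAD signaling, was lower laterally (log2 difference -0.94, SE 0.16, adjusted p = 0.0300), with 7.72 to 10.4 RPKM in lateral and 15.1 to 20.4 in medial libraries. Both calls rest on libraries of different runs: all 3 anterior medial libraries were of run G and the lateral ones of runs F, F and H, so run and compartment cannot be told apart within this pair. With run as a covariate in the fit of all 25 libraries no gene passed this comparison, neither of these included (limma, lowest adjusted p = 0.379, 154 genes at an unadjusted p under 0.05). The fit of all 25 libraries without run called 31 genes, in place of 262 in the fit of the 2 compartments. In each of the other 5 directional comparisons 0 listed genes passed.

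Bambi, a pseudoreceptor that inhibits TGF-beta family signaling, was the 1 listed gene of 20 tested that varied over the 8 compartments (limma adjusted p = 0.0158), where 4.42% of all genes did. It ranged from 1.33 RPKM through a median of 2.84 to 3.69 in anterior libraries (n = 13) and from 3.21 through 5.04 to 7.13 in posterior ones (n = 12). Every posterior library lay above every anterior one of the same compartment in all 4 pairs, which was found for 0.277% of 11913 genes. Bambi was highest in posterior nasal, with a median of 6.002 RPKM, and under the expression minimum of the pooled anterior to posterior comparison.
The signal transducer Smad3 had 15.3 RPKM ± 2.37 anteriorly and 19.0 ± 4.37 posteriorly (SD, n = 13 and 12), a log2 difference of 0.29 that did not pass (limma adjusted p = 0.258). Ski, a SMAD corepressor, had 57.0 ± 8.004 and 50.3 ± 9.96 RPKM (adjusted p = 0.398). Gdf1, a ligand of the same receptors, had 5.07 ± 2.10 and 6.61 ± 4.80 RPKM and did not vary over compartments by the test (adjusted p = 0.511).

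Genes whose pattern over the 25 libraries was most like that of Inhba included Lima1 (r = 0.79), an actin-binding protein, and Ttf1 (r = 0.73), among 8607 genes compared on the log2 scale. Lima1 had 60.1 RPKM ± 6.70 anteriorly and 49.7 ± 7.83 posteriorly (SD, n = 13 and 12). For Fst they included Mterfd1 (r = 0.76) and Pros1 (r = 0.73), and for Fstl1 they were Cadm2 (r = 0.73), Nr3c1 (r = 0.73) and Wwtr1 (r = 0.72). No member was among the nearest genes of another. The libraries share runs and compartments, and these values describe likeness only.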

How the data were processed

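Palates at E14.5, wild type CD1 per the labels, were laser captured into 8 compartments, and 25 amplified libraries were sequenced as single-end reads of 50 bases. The authors deposited RPKM values from GeneSpring 12.6.1 after removal of duplicate and of multiply aligned reads. The submitters' processing notes name TopHat and mm9, and a gene annotation is not given in the sources used here. Each library's group came from its title. The sequencing run came from the names of the alignments, and runs are lettered in the order of their numbers. Groups were compared on the log2(RPKM + 0.1) scale by limma (version 3.58.1, under R 4.3.3) with Benjamini-Hochberg adjustment over all genes tested and a threshold of 0.05. Posterior against anterior used genes with at least 10 RPKM in 6 libraries, the other comparisons at least 5 RPKM in 3. The test was tried on simulated data. The study calls the replicates biological; which embryos they came from is not stated in the labels, so p-values measure the spread between these libraries.

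The members, the pathway list, the markers and the tests were chosen with earlier results of these data known. Named are all 8 members, at most 6 pathway genes with the lowest adjusted p in posterior against anterior or over compartments, the pathway genes that passed, and the 3 nearest genes of Inhba, Fst and Fstl1 by Pearson r, of which some are not reported here. Inha, Nodal and Mstn were named after their values were seen. Genes with no value above 0 in any library (15007) had no part in percentiles. Replicate numbers are shared between compartments, and same-numbered libraries deviated together by more than r = 0.1 in every pair in anterior oral against nasal only (r = 0.24, 0.22 and 0.12). There the same-numbered nasal library was the closest one for oral replicate 1 only, which was also the only such pair from the same run. In posterior lateral against medial the same-numbered library was the closest one for every replicate (r = 0.22, 0.042 and 0.22), and none shared a run. In posterior oral against nasal it was the closest for replicates 1 and 3, and in anterior lateral against medial for none. The comparisons thus differed, whether the numbers mark pairs of libraries was not tested, and the replicate block is an alternative fit only. Alternatives were pseudocounts of 1 and 0.01, centring, quantile normalization, a mean-variance trend, no expression minimum, a replicate block, run or compartment as a covariate, 1 fit of all libraries and each library left out. The run covariate was always fitted over all 25 libraries with a mean for each compartment. It therefore differs from the main fits of 2 groups in more than run. Leaving out run C, and the alternatives for Inhbb, were added after seeing the data. Upstream sequences are from RefSeq on GRCm38.p6 and were matched by symbol for 7 of the 8 members. Other steps used Python 3.11.15 with scipy 1.17.1, pandas 2.3.3 and numpy 2.4.6, and matplotlib 3.10.9 drew the figures.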

Additional observations from a re-analysis of the deposited data

Results flagged for a closer look

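No value of a member met a rule for a closer look. Dixon's rule for a library that stands apart was applied in anterior nasal only, the compartment with 4 replicates. The other compartments were not checked by it. The nearest in anterior nasal was Inhba, where the library of run C at 95.8 RPKM stood apart from the other 3. Its distance was 0.815 of the range of the group, under the limit for 4 samples (Dixon's 95% value).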

How the results depend on the processing

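Inhba, the only member that passed a test at the expression minimum, was lower posteriorly and passed under each of the 35 alternatives of posterior against anterior (log2 difference -1.39 to -1.09, adjusted p 0.00126 to 0.0287), and the number of members called stayed at 1 there, except with no expression minimum, where it was 2 with Inhbb, and at 0 in the other comparisons under every alternative run. With the replicate block the Inhba difference was -1.16 (adjusted p = 0.0110). In anterior oral against nasal the block gave 0.065 for Inhba (adjusted p = 1.00) in place of -0.27, and neither passed. Anterior nasal replicate 4, of run C, has no same-numbered oral library, and the fit without it also gave 0.065. The block changed no other call. Inhbb, fitted with no expression minimum, had -2.49 (pseudocount 0.01) to -0.52 (pseudocount 1) over 32 alternatives. It lost its call only with run as a covariate (-1.35, adjusted p = 0.497), a fit that also has a mean for each compartment. With the run covariate and a mean for each compartment, the number of genes called in posterior against anterior was 143 in place of 286. With no expression minimum it was 485 and without run C 205. In the comparisons of 2 compartments, the run covariate also replaced the fit of those compartments by a fit of all 25 libraries. In anterior lateral against medial 262 genes were called in the main fit. The fit of all 25 libraries called 31 without run and 0 with it. In posterior oral against nasal these numbers were 132, 68 and 15. Over compartments, where both fits hold all 25 libraries, 526 genes were called without run and 177 with it.

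Of 862 values of single members, 31 changed sign, none of them past the threshold in either setting, and the lowest adjusted p among them was 0.330. The 862 include the test of variation over 8 compartments, with 34 alternatives for each member tested. Its values have no direction and could not change sign. By centring, posterior against anterior gave -0.021 for Fstl1 and -0.0027 for Acvr2a. Quantile normalization gave -0.025 for Fstl1 there, 0.012 for Inhba in anterior lateral against medial, 0.072 for Fstl1 in anterior oral against nasal and -0.53 for Acvr1b in the medial-lateral interaction. The run covariate gave 0.0029 for Inhba and 0.23 for Fst in anterior lateral against medial and -0.025 for Acvr2a in posterior lateral against medial. Without run C Fstl1 had 0.012 in anterior oral against nasal and Acvr2a -0.32 in the oral-nasal interaction. With each library left out, posterior against anterior ranged from -0.0052 to 0.058 for Fstl1 and from -0.0072 to 0.16 for Acvr2a, and anterior lateral against medial from -0.18 to 0.16 for Inhba and from -0.40 to 0.49 for Fst. Posterior lateral against medial ranged from -0.67 to 0.011 for Inhba and from -0.23 to 0.63 for Acvr2a. Anterior oral against nasal ranged from -0.85 to 0.19 for Inhba, from -0.18 to 0.052 for Fstl1 and from -0.12 to 0.37 for Acvr2a, and posterior oral against nasal from -0.65 to 0.27 for Fst. The medial-lateral interaction ranged from -0.62 to 0.059 for Inhba, from -0.86 to 2.21 for Acvr1b and from -0.076 to 0.78 for Acvr2a. The negative ends for Acvr1b and Acvr2a came without posterior medial replicate 2. The causes were not tested.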
